A study of Saccharomyces cerevisiae with 4 samples.

Results

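The genes described here are 40 messenger RNAs of glycolysis, gluconeogenesis and fermentation in budding yeast (Saccharomyces cerevisiae), taken as a fixed list of enzyme genes and matched by gene symbol to both array platforms. All 40 were printed on both platforms, out of 5583 named genes, and each had a value on at least 1 array. The series holds 4 arrays with 2 channels, all of 1 group. Each array compared the RNA co-precipitated with Mex67 carrying a zz tag (zzMex67) with the RNA co-precipitated with the bare zz tag, a control for what the tag itself brings down, both as cDNA. Mex67 is the receptor that carries mRNA through the nuclear pore, and the zz tag comes from protein A and binds antibodies. The strain, the growth medium, the promoter of the tagged gene and the number of cultures are not given in the labels.

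Glycolysis turns glucose into pyruvate in the cytosol, and on glucose yeast sends most of that pyruvate on to ethanol by way of acetaldehyde. The mRNAs of these enzymes are among the most abundant of a yeast cell on glucose. Many steps have several isozymes, of which one usually supplies most of the activity on glucose while the others serve under other carbon sources or stress. Gluconeogenesis runs the route in reverse with its own enzymes at the irreversible steps.

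Values below are log2 ratios minus the median over all genes of the same array, with all spots of a gene averaged, so that 0 is the array's middle gene and 1 is 2-fold above it. Replicate 1 stands alone on one platform, and replicates 2, 3 and 4 share a second one. A higher ratio likely means more RNA with zzMex67, because zzMex67 comes first in the sample titles and is in channel 1 of replicates 1, 3 and 4. Which channel is the numerator is not stated, so ratios are given only as higher or lower. On these 3 arrays an effect of the channel itself cannot be told apart from one of zzMex67. On replicate 2 the labels put zzMex67 in channel 2, and its sign was turned unless stated. Its title also puts zzMex67 first, so whether the deposited ratio had already been turned is not known. Separate cultures or precipitations are not named in any label, so p-values cover the spread among these arrays alone, possibly technical. The number of arrays limits the precision.

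The deposited tables held values for a larger share of these genes than of all printed genes on 3 of the 4 arrays. The share with a value was 92.5% on replicate 1 (37 of 40 members), against 79.0% of all genes. It was 35.0% on replicate 2 (14 members), against 9.46% of all genes, and 70.0% on replicate 4 (28 members), against 43.7%. On replicate 3 the shares were close, at 45.0% (18 members) against 41.2%. Enzymes of glycolysis and fermentation, 27 of the 40 genes, supplied all 14 members with a value on replicate 2, while the 13 genes of acetate, gluconeogenesis and glycerol supplied 0. On replicate 3 they supplied 15 of 27 against 3 of 13, whereas on replicates 1 and 4 the shares were alike, at 92.6% against 92.3% and 70.4% against 69.2%. Why a spot has no value is not stated in the sources used here. In all, 9 members were measured on every array, 6 on 3 arrays, 18 on 2 arrays and 7 on 1 array.

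**Figure D1:**
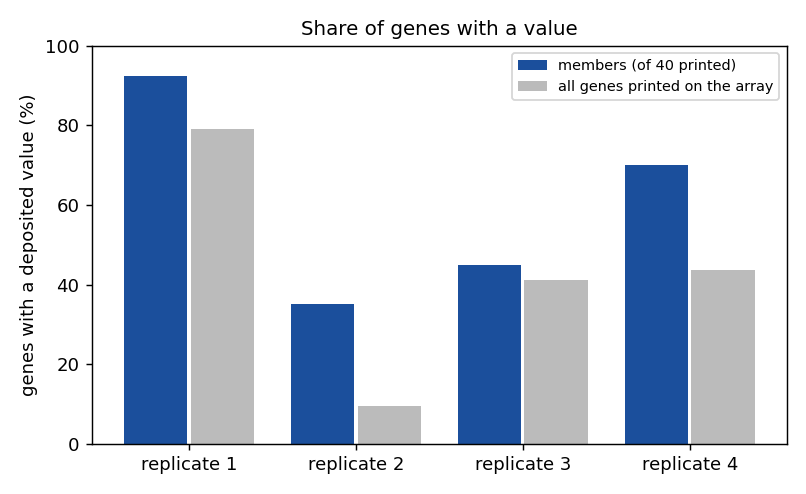
Percentage of genes with a deposited value on each array, for the members (left bar) and for all genes printed on that array (right bar). The members' share is the higher one on replicates 1, 2 and 4 (92.5%, 35.0% and 70.0%) and close to that of all genes on replicate 3 (45.0% against 41.2%).

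As a group the members lay above the array median on replicates 1, 3 and 4 and below it on replicate 2. Their median was 2.97 (SD over members 1.90) on replicate 1, which is 7.82-fold above the middle gene. It was 1.09 (SD 1.30) on replicate 3 and 0.82 (SD 1.35) on replicate 4, or 2.13-fold and 1.76-fold. On replicate 2 it was -0.56 (SD 1.05), and 0.56 with the sign as deposited. By construction the median of all genes is 0 on every array. At 2-fold or more above the median stood 27 of 37 members on replicate 1, 9 of 18 on replicate 3 and 12 of 28 on replicate 4, against 26.0%, 28.9% and 22.5% of all genes of those arrays. On replicate 2 there was 1 of 14 against 27.7%, and 6 of 14 stood at 2-fold or more below the median, against 29.2%. Among the highest 10% of an array's genes stood 51.4% of the measured members on replicate 1 and 32.1% on replicate 4, but 5.56% on replicate 3 and 0% on replicate 2. The ribosomal protein genes, also abundant in growing yeast, had shares of 67.4% on replicate 1, 36.4% on replicate 4, 8.33% on replicate 3 and 2.08% on replicate 2 (135, 77, 84 and 48 genes). Of the translation elongation factor genes, abundant as well, 1 of 10, 3 of 6, 0 of 7 and 0 of 4 stood there on the same arrays. Their median on replicate 2 was 1.29 (4 genes), above the array median, where the members had -0.56 and the ribosomal protein genes -1.04 (48 genes). These medians change sign with replicate 2 as deposited. The differences between these lists were not tested.

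**Figure D2:**
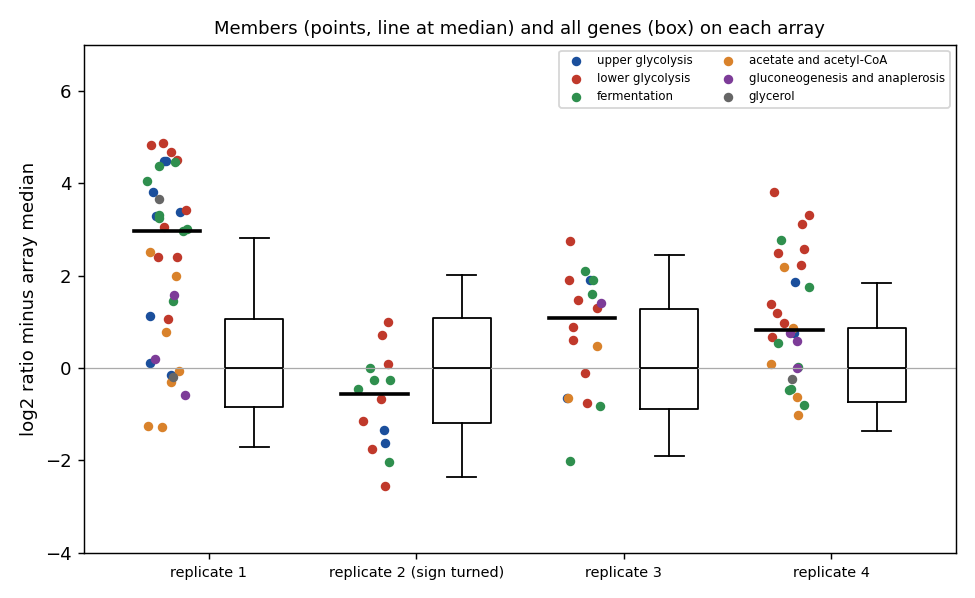
Log2 ratio minus the array's median over genes, by array. Points are members coloured by step of the pathway with a line at their median (2.97, -0.56, 1.09 and 0.82 on replicates 1 to 4), and boxes show all genes of the array with the median at 0, the quartiles and whiskers at the 10th and 90th percentiles. The highest point is a gene of lower glycolysis on each of replicates 1, 3 and 4 (4.87, 2.74 and 3.81).

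No member passed the test on the second platform, and no gene did. Limma's lmFit and eBayes were run on the 135 genes with a value on replicates 2, 3 and 4, of which 9 were members. The other 31 members lacked a value on at least 1 of these arrays and were not tested. After Benjamini-Hochberg adjustment at 0.05, 0 of 9 members were called (0.0% of all genes tested), and 0 of 9 had an unadjusted p under 0.05, against 4.44% of all genes. All 9 members had a positive mean, with a median of 1.02, beside a median of 0.64 over the 135 genes. Most of the 135 genes thus had a positive mean as well, so the sign alone does not set the members apart. Leaving out replicate 2 gave a median of 1.86 over the members and leaving out replicate 4 gave 0.50, with 6 of 9 means positive. The highest was PDC1 at 1.37 ± 1.52 (SD, n = 3), with limma's adjusted p = 0.75, and the lowest was ADH2 at 0.62 ± 1.29 (SD, n = 3), with limma's adjusted p = 0.897. With replicate 2 as deposited the order differed, with ENO2 highest at 2.34 and PGK1 lowest at 0.19. Limma then still called 0 of 9 (0.0% of all genes), and ENO1 and ENO2 had an unadjusted p under 0.05, against 9.63% of all genes. With the sign turned, the SDs exceeded the means for 7 of the 9, among them ENO2 with 0.64 ± 2.79 and TDH1 with 1.01 ± 2.23 (SD, n = 3). The exceptions were TDH2 with 1.21 ± 1.08 and ADH1 with 1.22 ± 1.06 (SD, n = 3).

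Across the 3 arrays with zzMex67 in channel 1, a join of the platforms by gene, 8 of 11 members were above 0 on each of them, compared with 19.2% of the 725 genes measured there. Since the channel order is the same on all 3, zzMex67 and channel cannot be told apart in this count. The 8 were TDH1, TDH2, TDH3, ENO1, ENO2, PDC1, ADH1 and ADH2, enzymes of 4 steps. At 2-fold or more on every array stood 5 of the 11, TDH2, ENO1, ENO2, PDC1 and ADH1, against 4.83% of all genes. PDC1 enters both counts through a replicate 1 average of spots at -1.71 and 4.64. It was under 2-fold on replicate 3, at 0.29, when runs of neighbouring spots were centred on their own medians. Limma called 0 of the 11 members and 0 of the 725 genes (0.0%), while 7 of 11 members had an unadjusted p under 0.05, against 8.97% of all genes. Limma's adjusted p was 0.386 for ENO1, ENO2, TDH2, TDH3 and ADH1, and higher for the others. These members came from families whose coding sequences are alike, and the array labels do not say whether the probes tell them apart. The counts may therefore cover fewer independent measurements than genes.

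The count above the median depends on which arrays enter. Without replicate 1 it was 10 of 14 members (34.5% of all genes), without replicate 3 it was 14 of 25 (26.7%), and without replicate 4 it was 9 of 15 (25.9%). Over all 4 arrays 1 of 9 members, TDH2, lay above the median on each, against 17.6% of 119 genes. With replicate 2 as deposited it was 7 of 9, against 26.9%, and the exceptions were TDH2 and PGK1. The count of 1 with the sign turned rests on a TDH2 value of 0.09 on replicate 2. It also depends on the centring. With each run of neighbouring spots centred on its own median, TDH1, PGK1 and ADH2 were positive on every array as well.

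Upper glycolysis, from the phosphorylation of glucose to the triose phosphates, was measured mainly on replicate 1. Its 8 genes had a median of 3.33 there (10.03-fold, range -0.14 to 4.48), and only 2 of the 8 had a value on each of the other arrays. Hexokinase 2, the main glucose-phosphorylating enzyme on glucose, had 3.28 (HXK2, YGL253W), and glucokinase (GLK1) had 3.37 on replicate 1 and -0.66 on replicate 3. Hexokinase 1 (HXK1) averaged 1.13 over spots that differed widely, at -1.09 and 3.35. HXK1, HXK2 and the triose phosphate isomerase gene TPI1, with 3.81, were measured on replicate 1 alone.

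The 2 subunits of phosphofructokinase, the regulated step that commits sugar to glycolysis, had unlike ratios. PFK2, the beta subunit, had 4.48 on replicate 1 from spots at 4.42 and 4.54, and 1.90 on replicate 3 from spots at 2.83 and 0.97. PFK1, the alpha subunit, had 0.11 on replicate 1 and -1.35 on replicate 2. On replicate 1, the only array with both, PFK2 ranked above 98.96% of genes and PFK1 above 52.8%. The aldolase gene FBA1 (YKL060C) had 4.47 and 0.76 on replicates 1 and 4. The phosphoglucose isomerase gene PGI1 had -0.14, -1.62 and 1.87 on replicates 1, 2 and 4. The replicate 1 value came from 1 spot near the median. It was 1.09 when runs of neighbouring spots were centred on their own medians. As deposited, replicate 2 has 1.62, so whether the direction differed between arrays depends on the processing and on that sign.

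Lower glycolysis, from glyceraldehyde-3-phosphate to pyruvate, where the pathway gains its ATP, lay above the array median on replicates 1, 3 and 4. The medians were 3.43 on replicate 1 (9 genes, all above 0), 1.09 on replicate 3 (8 genes, 6 above) and 2.36 on replicate 4 (10 genes, all above), with a mean of 2.30 ± 1.17 (SD, n = 3). On replicate 2 it was -0.67, with 3 of 7 genes above 0.

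The glyceraldehyde-3-phosphate dehydrogenase genes were measured on all arrays. TDH3 (YGR192C), the main isozyme, had 4.87, -0.67, 0.61 and 3.12 on replicates 1 to 4. TDH2 (YJR009C) had 4.84, 0.09, 1.30 and 2.24. It was the only one of the 9 members on all 4 arrays to lie above the median on each. That status rests on replicate 2 spots at -0.18 and 0.35, on either side of the median, and on the processing. With each run of neighbouring spots centred on its own median, TDH1, PGK1 and ADH2 were also positive on every array. Their replicate 2 values were then 1.02, 0.77 and 1.82, and ADH2 was only just positive on replicate 4, at 0.08. TDH1 (YJL052W), known for its expression in cells that have stopped growing, had 2.39, -1.15, 0.89 and 3.31. The largest ratio of TDH2 and TDH3 was on replicate 1 and that of TDH1 on replicate 4. TDH3 on replicate 4 rests on spots at 1.85 and 4.39.

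Phosphoglycerate kinase, made by the single gene PGK1 (YCR012W), had 1.06, 0.71, -0.10 and 1.38 on replicates 1 to 4. On replicate 1, from 1 spot, it ranked above 74.9% of genes, below each of the other 8 measured genes of lower glycolysis, whose lowest was TDH1 at 2.39. This last place depends on the centring. When runs of neighbouring spots were centred on their own medians, PGK1 had 2.154, above TDH1 (1.216) and PYK2 (2.139). Phosphoglycerate mutase (GPM1, YKL152C) had 3.06, 1.01 and 0.98 on replicates 1, 2 and 4. Its homologs GPM2 and GPM3, which contribute little mutase activity, had 1.47 and 0.68, and -0.76 and 1.19, on replicates 3 and 4.

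Enolase gave the highest ratios shared by the 3 arrays of one channel order. ENO1 (YGR254W) had 4.67, 2.74 and 2.49 on replicates 1, 3 and 4, a mean of 3.30 ± 1.19 (SD, n = 3), or 9.85-fold. ENO2 (YHR174W), the isozyme induced by glucose, had 4.50, 1.90 and 2.57, a mean of 2.99 ± 1.35 (SD, n = 3), or 7.94-fold. Both ranked above 83.6% of genes or more on each of these arrays. On replicate 2 they had -1.74 and -2.55, so that ENO2 was the lowest of the 14 members there, and as deposited they have 1.74 and 2.55. Pyruvate kinase (CDC19, YAL038W) had 3.43 and 3.81 on replicates 1 and 4, and 3.81 was the highest value of any member on replicate 4, above 99.3% of its genes. The glucose-repressed isozyme PYK2 had 2.41 on replicate 1.

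**Figure D3:**
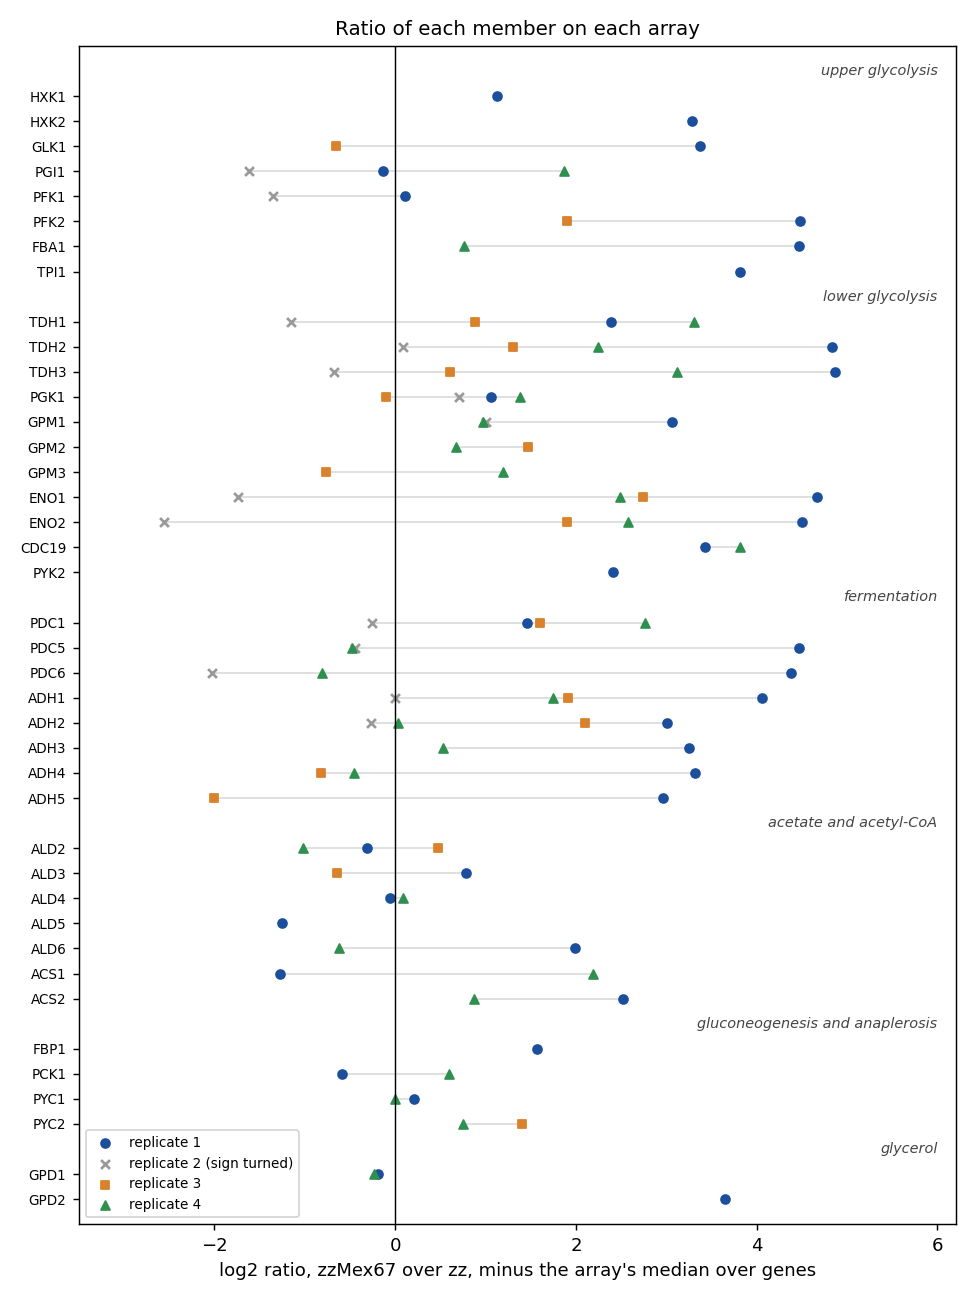
Log2 ratio minus the array's median over genes (horizontal axis) for each of the 40 members (rows, in pathway order), with a symbol per array and a grey line over its range. The genes of lower glycolysis and fermentation reach 4.87 on replicate 1, while replicate 2 crosses lie mostly left of 0, down to -2.55 for ENO2.

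The fermentation genes, which encode the enzymes from pyruvate to ethanol, were all above the median on replicate 1 and on both sides of it on replicates 3 and 4. On replicate 1 the 8 lay between 1.46 and 4.46, with a median of 3.28 (9.74-fold). Their medians were 1.60 on replicate 3 (3 of 5 above 0), 0.03 on replicate 4 (4 of 7) and -0.26 on replicate 2 (0 of 5). PDC1 (YLR044C), the main pyruvate decarboxylase, had 1.46, -0.25, 1.60 and 2.77 on replicates 1 to 4. Its replicate 1 value averages spots at -1.71 and 4.64, which lie 6.35 apart on opposite sides of the median. PDC5, made when PDC1 is missing, had 4.46, -0.45 and -0.48 on replicates 1, 2 and 4, and PDC6, a minor isozyme induced by sulfur limitation, had 4.38, -2.03 and -0.81. With replicate 2 as deposited its values become 0.45 for PDC5 and 2.03 for PDC6.

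Alcohol dehydrogenase is the family with the most isozymes here. ADH1 (YOL086C), which makes ethanol from acetaldehyde, had 4.06, 0.00, 1.91 and 1.75 on replicates 1 to 4. ADH2 (YMR303C), the glucose-repressed isozyme that consumes ethanol, had 3.00, -0.26, 2.10 and 0.03. The mitochondrial isozyme ADH3 had 3.25 and 0.53 on replicates 1 and 4. ADH4 had 3.32, -0.82 and -0.45 on replicates 1, 3 and 4, and ADH5 had 2.97 and -2.003 on replicates 1 and 3. ADH1 exceeded ADH4 on 3 of 3 of these arrays by 1.89 ± 1.03 (SD, n = 3), and ADH2 on 2 of 3 by 0.86 ± 0.97 (SD, n = 3). It exceeded ADH3 and ADH5 on 2 of 2 arrays each, by 0.81 and 1.21, and by 1.09 and 3.91. Once runs of neighbouring spots were centred on their own medians, ADH1 lay below ADH3 and ADH5 on replicate 1. The ADH5 value on replicate 3 came from 1 spot and was -0.018 with that centring.

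Over all families the major isozymes did not lie above the minor ones throughout. Of the differences between a major and a minor isozyme on the same array, 12 of 17 were positive on replicate 1, 3 of 6 on replicate 3, 8 of 12 on replicate 4 and 5 of 6 on replicate 2. The median differences were 1.05, 0.11 and 0.35 on replicates 1, 3 and 4, with a mean of 0.50 ± 0.49 (SD, n = 3), about the size of the spread between arrays, and 0.37 on replicate 2. The mean was 0.23 without replicate 1, 0.70 without replicate 3 and 0.58 without replicate 4. Of 11 pairs measured on 2 or 3 of replicates 1, 3 and 4, 4 had the major isozyme higher on each array, 0 had it lower on each and 7 were mixed. The 4 were ADH1 over ADH3, ADH4 and ADH5, and ALD6 over ALD2. ENO2 was below ENO1 on 2 of 3 arrays, and ENO2 minus ENO1 averaged -0.31 ± 0.48 (SD, n = 3). PDC1 minus PDC5 and PDC1 minus PDC6 were -3.003 and -2.91 on replicate 1, and 3.24 and 3.58 on replicate 4. The replicate 1 differences rest on PDC1 spots that disagree, at -1.71 and 4.64. The spots there were 3.91 and 5.02 for PDC5, and 4.84 and 3.91 for PDC6. The higher PDC1 spot thus lies between the spots of each, and the lower one below them all.

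**Figure D4:**
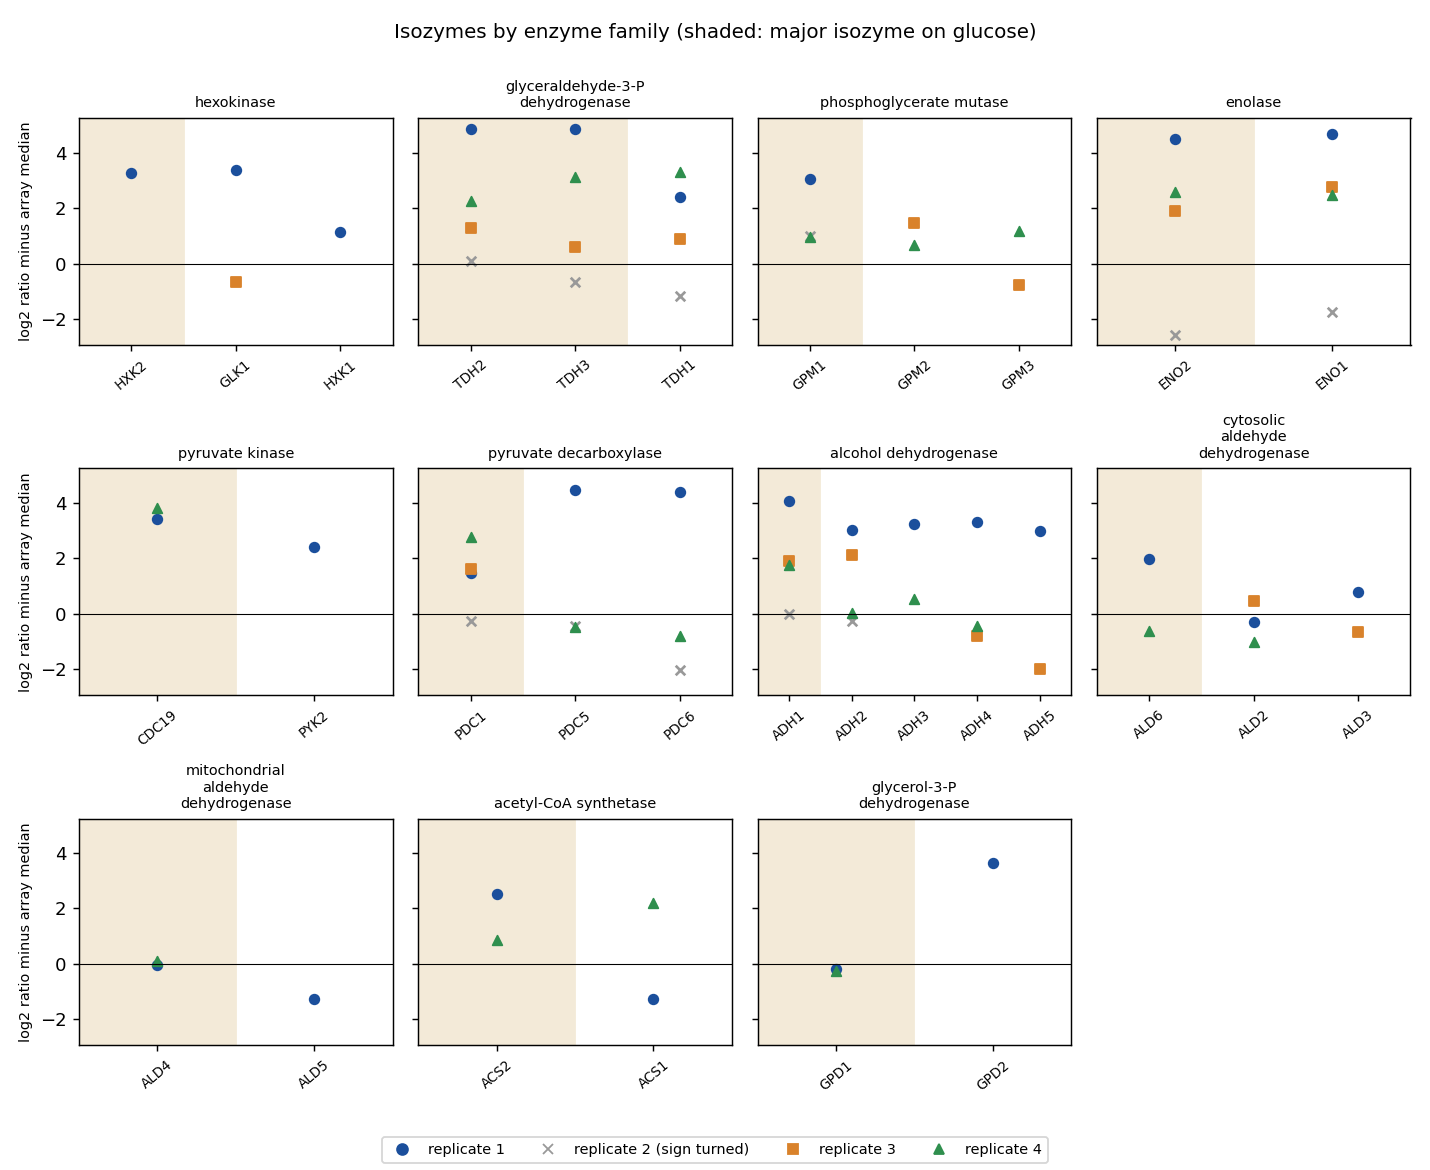
Log2 ratio minus the array's median over genes for the isozymes of 11 enzyme families, with a symbol per array and the major isozyme on glucose shaded at the left of each panel. ADH1 lies above ADH4 on replicates 1, 3 and 4, PDC1 lies above its minor isozymes on replicate 4 and below them on replicate 1, where it averages spots at -1.71 and 4.64, and the enolase genes lie close together on each array.

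Genes that make acetate and acetyl-CoA had medians near the array median on every array that measured them. Their medians were -0.05 on replicate 1 (7 genes), -0.08 on replicate 3 (2 genes) and 0.09 on replicate 4 (5 genes), with a mean of -0.02 ± 0.09 (SD, n = 3). Only ALD2 had a value on all 3, so this SD compares medians of differing genes and does not show how well a gene repeated. Single genes spread around that mean. ALD6, the main cytosolic aldehyde dehydrogenase, had 1.99 and -0.62 on replicates 1 and 4, and ALD4, the main mitochondrial one, had -0.05 and 0.09. The stress-induced ALD2 had -0.31, 0.48 and -1.02 on replicates 1, 3 and 4, ALD3 had 0.79 and -0.65 on replicates 1 and 3, and ALD5 had -1.26 on replicate 1. Acetyl-CoA synthetase 2 (ACS2), needed for growth on glucose, had 2.52 and 0.88 on replicates 1 and 4. Its glucose-repressed isozyme ACS1 had -1.27 and 2.19, the reverse order between the arrays.

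Of the gluconeogenic genes, which glucose represses, fructose-1,6-bisphosphatase (FBP1) had 1.57 on replicate 1 and phosphoenolpyruvate carboxykinase (PCK1) had -0.59 and 0.60 on replicates 1 and 4. Pyruvate carboxylase, which refills oxaloacetate, had 0.21 and 0.00 for PYC1 on replicates 1 and 4, and 1.40 and 0.75 for PYC2 on replicates 3 and 4. For glycerol synthesis, GPD1, induced by osmotic stress, had -0.19 and -0.24 on replicates 1 and 4, while GPD2, induced without oxygen, had 3.65 on replicate 1. GPD2 ranked above 95.6% of genes there and stood 3.84 above GPD1, each from 1 spot. When runs of neighbouring spots were centred on their own medians, GPD1 turned positive, with 1.59 and 0.56 on replicates 1 and 4. GPD2 then had 3.38 on replicate 1.

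Taking the steps in 2 sets, glycolysis and fermentation genes lay higher than those of acetate, gluconeogenesis and glycerol on each of replicates 1, 3 and 4. The medians were 3.32 against 0.08 on replicate 1 (24 of 25 and 6 of 12 above 0), 1.30 against 0.48 on replicate 3 (10 of 15 and 2 of 3) and 1.38 against 0.09 on replicate 4 (16 of 19 and 5 of 9). Of all genes, 50% lie above 0 by construction. This division was made after the values were seen and carries no test.

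Genes around the pathway were taken in 6 lists of 52 genes. On replicates 1, 3 and 4 their medians were 0.31, -0.45 and -0.21, from 43, 20 and 18 measured genes. On replicate 2 it was 2.09, from 5 genes. None of the 52 had a value on all of replicates 2, 3 and 4, so none entered the design's test. Limma on replicates 1, 3 and 4 called 0 of 4 (0.0% of all 725 genes), with 1 at an unadjusted p under 0.05, against 8.97% of all genes. That gene was PDB1 (YBR221C), a subunit of pyruvate dehydrogenase, which takes pyruvate into the mitochondrial citric acid cycle. It had 1.67, 3.27 and 2.24 on replicates 1, 3 and 4, a mean of 2.39 ± 0.81 (SD, n = 3), with limma's adjusted p = 0.386. The glycogen phosphorylase gene GPH1 had -1.47, -0.80 and -0.67, a mean of -0.98 ± 0.43 (SD, n = 3), with limma's adjusted p = 0.815.

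By list, on replicates 1, 3 and 4 in turn, the regulators of glycolysis had medians of 0.31, 0.31 and -1.17 (5, 3 and 2 genes). Other glycerol genes had 0.83, 1.39 and -0.07 (4, 2 and 2 genes), and trehalose and glycogen genes -0.16, -0.80 and 1.66 (7, 5 and 3 genes). The pentose phosphate pathway, which branches off at glucose-6-phosphate, had 0.78, -0.45 and -0.47 (10, 3 and 5 genes). Pyruvate dehydrogenase subunits had 0.62, -0.15 and 1.15 (4, 3 and 2 genes). The citric acid and glyoxylate cycle genes had -0.37, -1.10 and -0.24 (13, 4 and 4 genes), the only one of the 6 lists with a median below 0 on all 3 arrays. On replicate 2, with its sign turned, their median was 2.09, with 3 of 3 measured genes above 0.

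On replicates 2, 3 and 4 each member was printed as a pair of neighbouring spots. On replicate 1 most members had a single spot, among them TDH2, TDH3, ENO1, ENO2 and ADH1, and the pairs there lie far apart in spot number. The difference within a pair shows the error of the spots alone, and it is not the same measure on the 2 platforms. The median difference between a member's spots was 0.66 on replicate 1 (13 genes), 0.24 on replicate 2 (14 genes), 0.40 on replicate 3 (15 genes) and 0.44 on replicate 4 (23 genes). For all genes with 2 measured spots it was 0.81, 0.53, 0.48 and 0.41. The members' spots differed by 2-fold or more in 4, 0, 4 and 4 genes on replicates 1 to 4, against 39.7%, 29.2%, 26.9% and 13.7% of all such genes. The member values of replicate 2 came from neighbouring spots that matched closely, with ENO2 at -2.46 and -2.65. Such a match does not cover differences between regions of the array. With each run of 400 neighbouring spots centred on its own median, the members' median on replicate 2 was -0.39. ENO2 then had -0.38, TDH1 1.02 and ADH2 1.82, while PDC6 stayed low at -2.45.

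**Figure D5:**
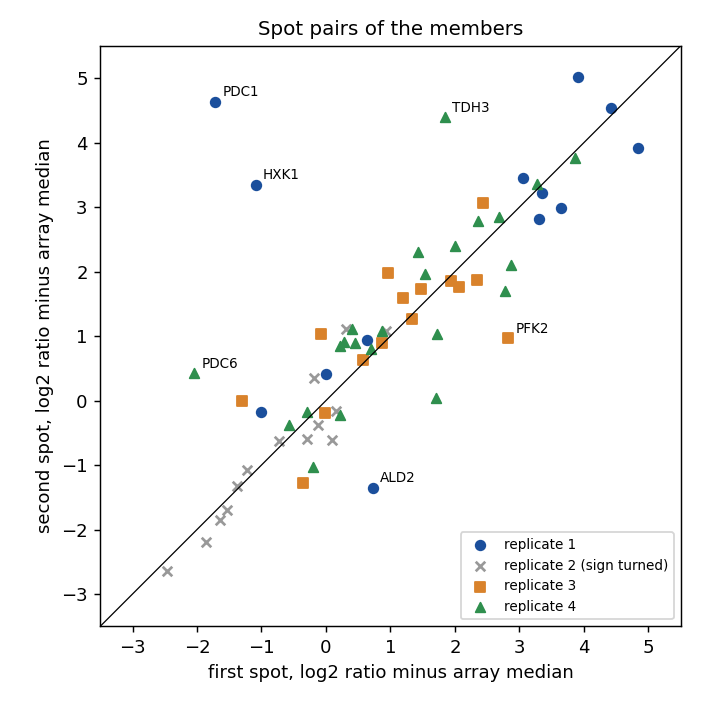
Log2 ratio minus the array's median over genes for the first (horizontal axis) and second (vertical axis) spot of each member with 2 measured spots, by array, with the line of equality. PDC1 and HXK1 on replicate 1 lie far off the line, at -1.71 and 4.64 and at -1.09 and 3.35, while replicate 2 crosses lie close to it.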

How the data were processed

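The authors deposited log10 ratios of the 2 channels of each array, in 1 table for replicate 1 and 1 for replicates 2, 3 and 4. Base 10 was inferred, since raising 10 to the deposited value gave a ratio of small whole numbers (denominator up to 50, tolerance 2e-08) at 0.276%, 4.68%, 15.6% and 13.3% of spots, against at most 0.152% with base 2. No label or header names the dyes, the background correction, a normalization or a genome build. Spot medians on the deposited log10 scale were 0.386, -0.163, -0.251 and 0.643, and 5800, 1004, 4610 and 4498 spots had a value. Values were converted to log2, spots of a gene averaged, and each array centred on its median over genes. Symbols came from the platform annotation and were checked against RefSeq gene identifiers (assembly R64), with 0 updates. Replicates were numbered in accession order, so a number only names an array. No date in the sample titles repeats, and slide numbers repeat (3 on replicates 3 and 4) without showing a shared slide, so no batch holding over 1 array was known.

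Tests used limma 3.58.1 (R 4.3.3, lmFit and eBayes, Benjamini-Hochberg over all genes of the fit), tested on simulated data, on the genes that all 3 arrays of the second table measured. All members may be named. Of the other lists, up to 2 genes per list with 1 sign on replicates 1, 3 and 4 were named by largest mean. Members, lists and major isozymes were chosen with earlier results of these data known. Alternatives were the sign of replicate 2, centring, scaling, runs of 400 neighbouring spots, 1 spot per gene, the arrays and genes used, a dye term, and replicates left out.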

Additional observations from a re-analysis of the deposited data

How the results depend on the processing

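Under 14 alternatives limma called 0 members and 0 genes each time, with 0 to 7 members and 3 to 65 genes at an unadjusted p under 0.05. The fits differed in size, with 9 to 18 members and 119 to 1212 genes. Both largest counts, 7 of 11 members and 65 of 725 genes, came from joining replicates 1, 3 and 4. The median of the members' means, 1.02 on the second platform, stayed positive between 0.501 and 2.20. The means of the 9 members kept their sign in 121 of 126 comparisons. The 5 exceptions were ADH2 without replicate 3 (-0.12), ENO2 with a dye term (-0.16), and ENO2, TDH1 and TDH3 without replicate 4 (-0.33, -0.13 and -0.034). When 1 array was left out the highest means of ADH2, ENO2, TDH1 and TDH3 were 1.07, 2.24, 2.10 and 1.86, all without replicate 2. With replicate 2 as deposited, its medians turned to 0.56 for all members, 1.48 for upper glycolysis, 0.67 for lower glycolysis and 0.26 for fermentation, and to -0.37 for major minus minor isozymes. With no centring the members' medians were 4.24, 0.022, 0.27 and 2.85 on replicates 1 to 4. It raised the means over replicates 1, 3 and 4 to 0.81 for acetate genes and 1.56 for gluconeogenic ones, since it adds each array's own median. The acetate mean, near 0, also turned with the first spot only (0.13) and without replicates 1 or 3, with a range of -0.068 to 0.019 when 1 array was left out. Centring runs of 400 spots gave 0.086 for gluconeogenic genes. The cause was not tested. Members above the median numbered 10 of 14, 14 of 25 and 9 of 15 without replicates 1, 3 and 4 in turn. The shares of all genes were 34.5%, 26.7% and 25.9%. Over all 4 arrays such members numbered 1 of 9 with the sign turned, against 17.6% of all genes. With replicate 2 as deposited they numbered 7 of 9, against 26.9%. Both counts were added after seeing the data. No paired analysis was possible because the labels give 1 group. The files give no intensities, so signal over background was not used.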

Other observations

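Across the members, ratios on different arrays were loosely related, as a description over genes that share an array and, in part, a family. Between replicates 1 and 3 Pearson's r was 0.39 (Spearman's rho 0.41, 15 members), between 1 and 4 it was 0.23 (rho 0.28, 25 members), and between 3 and 4 it was 0.33 (rho 0.24, 14 members). Over all genes the same pairs had 0.06, 0.08 and -0.02 (1777, 1912 and 923 genes). Replicate 2 had -0.08, -0.51 and -0.11 with replicates 1, 3 and 4 over the members (14, 9 and 13 genes), and these turn their sign when it is left as deposited.

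Some genes outside the 40 members had large ratios on single arrays, picked out after the values were seen. PFK27, which makes the activator of phosphofructokinase, had 4.27 on replicate 1 and -1.68 on replicate 4. The malate dehydrogenase gene MDH2 had 4.91 and -1.05 on replicates 1 and 3. The glycerol-phosphatase gene GPP2 had 3.93 on replicate 1, where GPD2, the gene of the preceding step, had 3.65.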
